A study of Mus musculus with 2 samples.

Results

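The habenula spots were the 50 spots, 25 in each of 2 mouse brain sections, that scored highest for 4 habenula transcripts, out of 7260 spots used in all (3712 in mouse 1 and 3548 in mouse 2). The score of a spot was the mean of log(1 + UMIs per 10000) over Tac2, Gng8, Nwd2 and Pou4f1, taken over spots with at least 500 UMIs in the upper part of the capture area (array row 45 or less); a UMI is a molecular tag that counts 1 captured transcript. These 4 genes chose the spots, so their values below are a description and were not tested. A spot covers a small patch of tissue with several cells, so every value is a level of a region, not of a cell type.

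Each section was a 10 µm fresh-frozen coronal slice cut 1.9 mm behind bregma and read with 10x Visium, which captures polyadenylated RNA on a barcoded slide. Both mice expressed hM3Dq, a designer receptor that excites neurons when its ligand CNO is given, and both had received CNO; the injection site lay 4.6 mm behind bregma. Mouse 1 is labelled as a wild-type C57BL/6J control and mouse 2 as a wild-type isogenic control made by CRISPR-Cas9 editing. Age, sex, the promoter that drove the receptor and the injected image side are not given in the labels. There was no section without CNO, so an effect of receptor activation can be neither shown nor excluded for any value below. With 1 section per genotype, the mice served as replicates of each comparison between sets of spots. A difference between mice cannot be told apart from a difference between genotypes, libraries or the tissue that the chosen spots cover.

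The habenula is a small paired nucleus at the dorsal midline of the thalamus that passes signals from the forebrain to the midbrain. Its medial division holds neurons that make acetylcholine in its ventral part and substance P, encoded by Tac1, in its dorsal part, and both send axons to the interpeduncular nucleus. The medial habenula is known for very high nicotinic receptor expression and for a role in nicotine aversion, and the lateral habenula for glutamatergic neurons that act on dopamine and serotonin centres.

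The chosen spots formed a pair of clusters beside the midline. Mouse 1 had 10 spots left and 15 right of a mirror line fitted to the whole section, and mouse 2 had 11 and 14, all between 0.78 and 4.22 spot pitches from that line, a pitch being the distance between neighbouring spots. The same 25 spots were chosen in each mouse when the limit on array row was dropped. The lowest score inside the set and the next one outside it were close, 1.58 against 1.54 in mouse 1 and 1.77 against 1.75 in mouse 2, whereas the median score of all other spots was 0.0. The edge of the set is therefore a choice, not a gap. Positional barcodes are reused on every slide, and 12 of the 25 barcodes were shared between the mice.

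**Figure D1:**
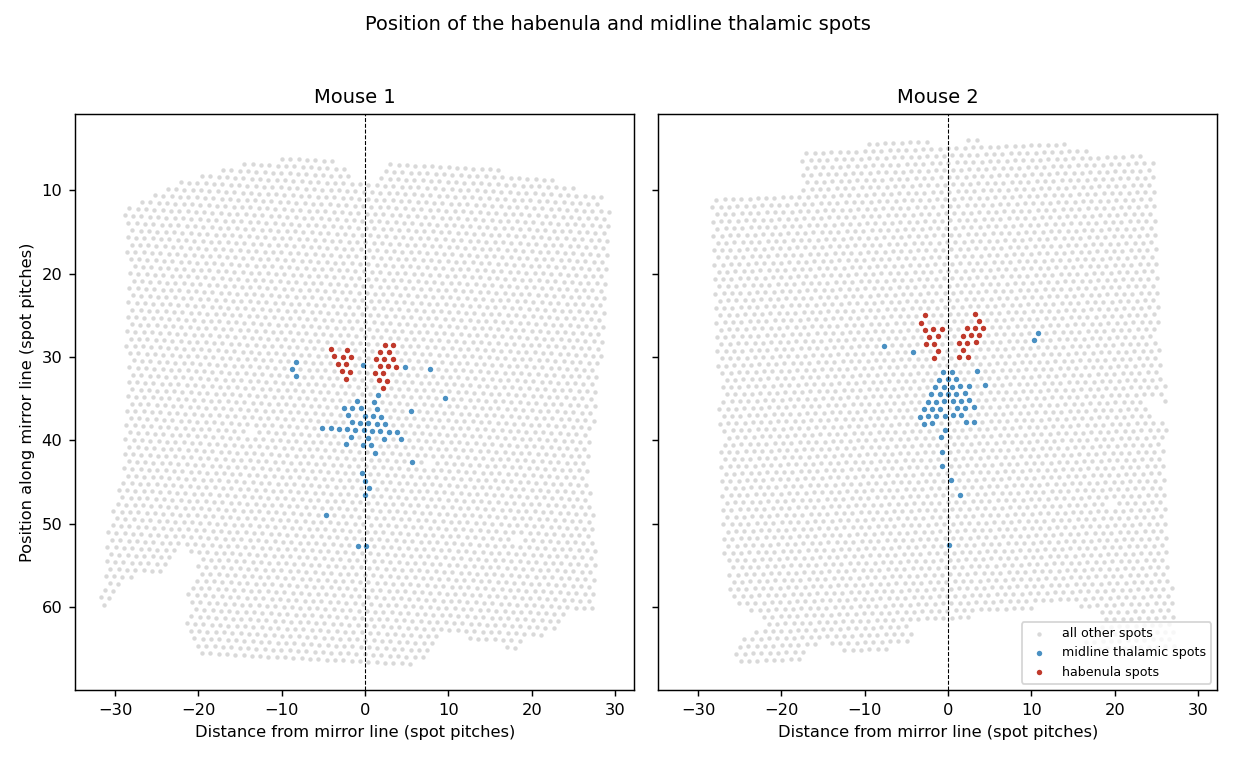
Position of the habenula spots (red), the midline thalamic spots used for comparison (blue) and all other spots (grey) in each section, in spot pitches from the mirror line (horizontal axis, dashed line at 0) and along it (vertical axis). The 25 habenula spots of each mouse lie in a left and a right cluster above most of the 50 midline thalamic spots.

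The habenula spots held 467055 UMIs in mouse 1 and 847611 in mouse 2. They were richer in RNA than the rest of the tissue, with a median of 18607 and 33323 UMIs per spot against 7527 and 14614 in all other spots. Mitochondrial transcripts took 9.51% and 10.39% of their UMIs, against 13.39% and 15.46% elsewhere. All levels below are UMIs of a gene scaled to the same total in every set of spots (CPM), and fewer cells of a type and less RNA per cell cannot be told apart in them.

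The 4 choosing genes fell steeply outside the set. Tac2, the precursor of neurokinin B, stood at 1315 CPM in mouse 1 and 1183 in mouse 2, against 21.4 and 29.1 in all other spots. Gng8, a G protein gamma subunit, stood at 651 and 1295 against 14.6 and 22.8, and Pou4f1, the homeodomain factor Brn3a that habenular neurons need for their development, at 182 and 198 against 2.71 and 3.47. Nwd2 stood at 897 and 858 against 17.4 and 17.8. When each gene was measured in spots chosen by the other 3, most spots were the same, so these levels too are a description. Tac2 was then at 1180 and 1152 CPM, with 21 and 23 of the 25 spots shared with the full choice. Gng8 was at 568 and 1001, with 22 and 19 shared.

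In the RefSeq annotation of GRCm38.p6, the assembly behind the mm10 build named in the submitters' processing notes, these genes lie at chr10:127724478-127731768 (Tac2), chr7:16891737-16895451 (Gng8), chr5:63649103-63810546 (Nwd2) and chr14:104461675-104468118 (Pou4f1). Chrna3 (chr9:55010117-55026562) and Chrnb4 (chr9:55028154-55048953) are neighbours, and the 3′ end of Chrna3 overlaps that of Chrna5 (chr9:54980827-55011420). Slc18a3 (chr14:32462437-32464850) lies inside Chat (chr14:32408203-32465909), so reads from their shared stretch may have been split between them. Slc5a7 lies at chr17:54273590-54299038.

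The 250 bases before a transcript start are shown for Chrna3 and Slc5a7. Both genes were higher in the habenula spots than in the rest of the sections and higher in ventral than in dorsal habenula spots, as given below. Their windows overlap no other annotated gene. A window of Etv1 met the same conditions and is not shown. The last 4 bases of the Slc5a7 window lie inside the widest annotated extent of Slc5a7 itself. They are RefSeq sequences of GRCm38.p6, minus strand, 5′ to 3′, from chr9:55026563-55026812 and chr17:54299035-54299284; capitals mark a match to the GC box GGGCGG on either strand.
Chrna3: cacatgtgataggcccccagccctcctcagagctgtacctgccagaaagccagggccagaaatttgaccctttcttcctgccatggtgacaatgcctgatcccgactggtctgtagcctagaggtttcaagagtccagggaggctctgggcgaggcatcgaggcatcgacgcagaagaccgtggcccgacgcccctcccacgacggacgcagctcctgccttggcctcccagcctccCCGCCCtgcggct
Slc5a7: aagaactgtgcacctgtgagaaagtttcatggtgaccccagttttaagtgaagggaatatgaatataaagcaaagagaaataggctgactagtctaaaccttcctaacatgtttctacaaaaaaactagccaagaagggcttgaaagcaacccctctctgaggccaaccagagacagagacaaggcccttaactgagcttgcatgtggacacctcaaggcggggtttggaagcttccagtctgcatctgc

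The Chrna3 window was 63.2% G and C and held 1 GC box, 13 bases before the start, a motif found in 32.7% of 32851 windows of this length. The Slc5a7 window was 45.6% G and C and held none. The other 3 motifs were searched on both strands: AATTAAT (2.46% of windows), AAGGTCA (4.08%) and TGACGTC (2.78%). None of them occurs in either window, and the Etv1 window held none of the 4 motifs.

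Against all other spots, the habenula spots held more RNA of most listed medial habenula genes, less of most listed lateral habenula, myelin and microglial genes, and more of the ependymal genes. Of 15156 genes tested with edgeR, 1514 were higher (9.99%) and 2190 lower (14.4%) at an adjusted p under 0.05, together 24.4%, and 5015 had an unadjusted p under that value. Genes that accompany the 4 choosing genes across the tissue had to be higher in spots chosen by them, so these counts describe the set. DESeq2 called 708 higher and 887 lower, and thinning to 5000 UMIs per spot, which also left out 731 and 24 shallower other spots, gave 139 and 252.

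Of 18 listed medial habenula genes besides the choosing ones, 13 were higher and 2 lower, with a median log2 difference of 3.53 against -0.07 over all genes tested. Among genes for acetylcholine, Slc5a7, the choline transporter, was at 148 and 118 CPM in the habenula spots of mouse 1 and mouse 2 and at 5.46 and 3.18 in all other spots (log2 difference 4.79 ± 0.23 SE). Slc18a3, which loads acetylcholine into vesicles, was at 72.8 and 36.6 against 1.89 and 0.955 (5.05 ± 0.42), and Chat, the enzyme that makes it, at 17.1 and 13.0 against 1.36 and 0.477 (3.99 ± 0.67). In both mice each of these levels was above that of the other spots. Ache, the enzyme that breaks acetylcholine down, rose less, by 0.61 ± 0.16 on the log2 scale, a call that DESeq2 did not make.

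The nicotinic receptor genes split by subunit. Of 10 listed, 7 could be tested, 3 were higher and 1 lower. Chrna3 was at 317 and 218 CPM against 3.97 and 4.53 (log2 difference 5.69 ± 0.17), Chrnb4 at 120 and 101 against 1.69 and 2.18 (5.58 ± 0.30) and Chrnb3 at 83.5 and 118 against 2.05 and 2.15 (5.39 ± 0.30). These encode the alpha3, beta4 and beta3 subunits. Single spots varied, with Chrna3 UMIs in 19 and 23 of the 25 habenula spots and in 2.31% and 4.12% of the other, shallower spots. Chrna5, whose alpha5 subunit joins alpha3 and beta4, held 4.28 and 1.18 CPM against 1.49 and 1.65 and did not pass. Chrnb2, the most widely used brain beta subunit, was at 47.1 and 43.7 against 28.1 and 31.0 and did not pass either. Chrna4 was called lower (-0.57 ± 0.21), but the value turned to 0.15 in mouse 1 alone, and DESeq2 did not call it. Chrna2, Chrna7 and Chrna10 had no UMI in the habenula spots and were not tested.

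Among the peptides, 5 of 20 listed genes were higher and 13 lower, with a median log2 difference of -0.87. Tac1 was at 263 and 363 CPM against 38.0 and 31.3 (log2 difference 3.02 ± 0.12). Adcyap1, the precursor of PACAP, was at 87.8 and 168 against 13.4 and 13.4 (3.10 ± 0.18), and Cartpt at 137 and 247 against 78.0 and 52.4 (1.49 ± 0.12). Pcsk1, a protease that cuts peptide precursors, was higher by 1.89 ± 0.22. Among the lower ones was Npy, neuropeptide Y, at 17.1 and 16.5 against 120 and 106 (-2.94 ± 0.23). Sst was called lower by only -0.25 ± 0.09, and its sign differed between the mice.

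The receptors that were higher include several that bind peptides or monoamines, 8 of 17 tested against 1 lower. Tacr1, the substance P receptor, was at 60 and 57.8 CPM against 2.22 and 2.70 (log2 difference 4.34 ± 0.35). Htr5b, a serotonin receptor, was at 87.8 and 54.3 against 2.35 and 1.34 (5.06 ± 0.35), and Sstr2, a somatostatin receptor, at 77.1 and 94.4 against 6.16 and 7.34 (3.45 ± 0.24). The orphan receptor Gpr139 was at 17.1 and 55.4 against 1.79 and 1.65 (4.26 ± 0.43). Tacr1 and Sstr2 bind the products of Tac1 and Sst, which were measured in the same set of spots.

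Of 9 listed lateral habenula genes, 2 were higher and 7 lower. Gpr151, an orphan receptor of habenular axons, was at 293 and 445 CPM against 11.6 and 11.6 (log2 difference 4.81 ± 0.13). The rest of the list was low: Gap43, a growth cone protein, was at 105 and 94.4 against 345 and 365 (-2.08 ± 0.11), and Pcdh10, an adhesion protein, at 45 and 47.2 against 91.9 and 104 (-1.31 ± 0.18). Htr2c was called higher (0.51 ± 0.17), but the value was -0.05 with spots chosen without Gng8, and DESeq2 did not call it. Most of the lateral list was thus below the rest of the tissue, and most of the medial list above it.

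Of 18 listed transcription factors tested, 8 were higher and 6 lower, and their median log2 difference of -0.07 was that of all genes tested. Irx2, an Iroquois homeodomain factor, was at 169 and 144 CPM against 4.11 and 4.53 (log2 difference 4.93 ± 0.21), and Nr4a2, the nuclear receptor Nurr1, at 203 and 203 against 11.6 and 13.1 (3.81 ± 0.16). Zic1, a zinc finger factor, was at 696 and 835 against 108 and 132 (2.46 ± 0.07). Rora, a nuclear receptor abundant in thalamus, was at 68.5 and 76.7 against 265 and 271 (-2.08 ± 0.13). Isl1 had no UMI in the set.

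Channels and synaptic receptors were more often lower than higher. Of 21 pacemaker and potassium channel genes, 5 were higher and 12 lower: Kcng4, a modifying potassium channel subunit, was at 158 and 190 CPM against 9.27 and 10.2 (log2 difference 3.95 ± 0.17). Of 27 GABA and glutamate receptor genes, 5 were higher and 19 lower. The GABA-B receptor subunits and their partners did not all move one way: Gabbr1 was at 1006 and 1254 against 336 and 388 (1.43 ± 0.06), Gabbr2 rose by 0.62 ± 0.09, and Kctd8, an auxiliary subunit of that receptor, was at 188 and 199 against 9.87 and 11 (4.0 ± 0.16). Kctd16, another auxiliary subunit, had no UMI in the habenula spots, at least 2.19-fold lower. Grin2b, an NMDA receptor subunit, fell by 2.60 ± 0.22 on the log2 scale.

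**Figure D2:**
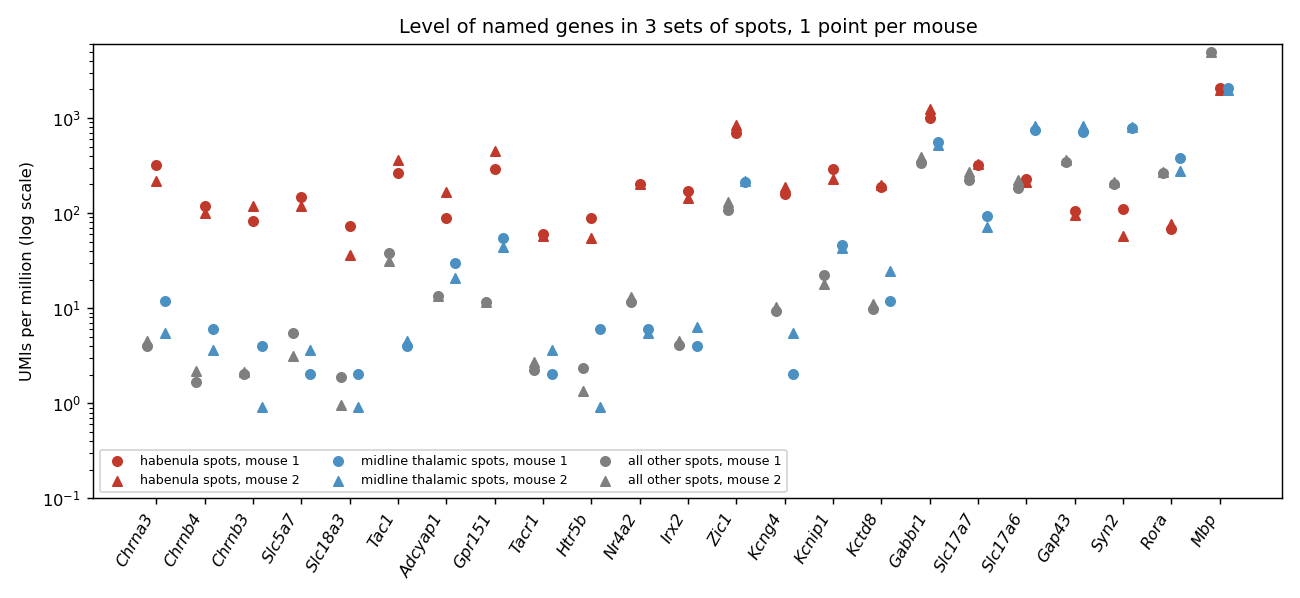
CPM (log scale) of named genes in the habenula spots (red), the midline thalamic spots (blue) and all other spots (grey), with a circle for mouse 1 and a triangle for mouse 2. Chrna3, Chrnb4, Chrnb3, Slc5a7 and Slc18a3 stand far above both other sets in each mouse, whereas Gap43, Syn2 and Rora stand below them.

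Of the 10 genes with the largest rise, Gm5741, Chrna3, Chrnb4 and Nppa had the most UMIs in the set. Gm5741, a predicted protein-coding gene at chr8:85067568-85067982, was at 1068 and 983 CPM against 12.4 and 14.7 (log2 difference 5.99 ± 0.08). Nppa, the precursor of atrial natriuretic peptide, was at 105 and 118 against 1.72 and 2.31 (5.56 ± 0.29), and Tyrp1, a pigment cell enzyme, at 55.7 and 28.3 against 0.199 and 0.643 (6.19 ± 0.52). D130009I18Rik had the largest value (6.68 ± 1.14) on 4 and 8 UMIs in the set. At the other end, the 10 lowest genes had no UMI in the habenula spots. Six3, a forebrain homeodomain factor, was at least 8.04-fold lower and Scrt2, a zinc finger factor, at least 4.71-fold lower, taking 3 UMIs over both sets as the limit a count of 0 allows.

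Across all single spots, the genes besides the choosing ones whose level followed the score most closely were Gm5741 and Chrna3. The Pearson correlation was 0.725 over 3712 spots of mouse 1 and 0.764 over 3548 spots of mouse 2 for Gm5741, 0.579 and 0.579 for Chrna3, and 0.568 and 0.698 for Gpr151. Lrrc55, Chrnb4, Irx2, Sncg, Nppa, Tyrp1 and Htr5b followed. Spots of a mouse share a library and differ in depth, so these are descriptions.

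RNA of the neighbouring tissue moved with the set. All 8 listed ependymal genes were higher, led by Tmem212 at 55.7 and 66.1 CPM against 8.64 and 8.34 (log2 difference 2.66 ± 0.25), and the summed list stood at 276 and 453 against 94.1 and 80.0. Of 8 choroid plexus genes none was higher and 2 were lower, with Ttr at 1195 and 1337 against 3613 and 2520. All 10 myelin genes were lower (Mbp 2068 and 1947 against 4887 and 4908, -1.50 ± 0.06), as were 11 of 15 microglial genes and all 13 mitochondrial genes, none of which was higher. Of 11 astrocyte genes 2 were higher and 5 lower, with Aqp4, the water channel, higher by 0.86 ± 0.10 and Slc1a2, the main glutamate transporter, lower (-1.76 ± 0.08). What part these cells play in the other differences was not tested.

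The series title names C1q and immunoglobulins. C1qa was at 49.2 and 53.1 CPM against 83.7 and 70.5 (log2 difference -0.76 ± 0.18), C1qb at 49.2 and 61.3 against 84.1 and 73.3 (-0.66 ± 0.17) and C1qc at 34.3 and 38.9 against 68.1 and 61.8 (-1.0 ± 0.20). All 3 C1q chains were lower in both mice, as were most listed microglial genes, although DESeq2 called neither C1qa nor C1qb. Igkc, the kappa light chain constant region, was at 17.1 and 38.9 against 34.6 and 13.1 and did not pass. The summed immunoglobulin list went opposite ways in the mice, at 23.6 against 79.1 in mouse 1 and 81.4 against 46.6 in mouse 2. Fos, a marker of recent activity, was at 2.14 and 9.44 against 12.3 and 12.5 and did not pass. Nr4a3, another gene induced by activity, was at 45 and 70.8 against 13.7 and 17.8 (1.69 ± 0.22). Of 17 immediate early genes, 2 were higher and 4 lower.

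The midline thalamus borders the habenula and offers a closer comparison. It was represented by the 50 spots per section that scored highest for Calb2 and Gbx2 outside the habenula spots. Only the habenula spots themselves were barred, so spots just below the cut of the habenula score could be among them. With edgeR, 1371 of 8796 genes were higher in the habenula spots (15.6%) and 1396 lower (15.9%), together 31.5%. The vesicular glutamate transporters moved in opposite directions. Slc17a7, the vesicular transporter VGLUT1, was at 321 and 332 CPM in the habenula spots and at 94.3 and 70.8 in the thalamic spots (log2 difference 2.08 ± 0.16), and Slc17a6, VGLUT2, at 231 and 211 against 748 and 825 (-1.83 ± 0.12). Neither passed against all other spots. Sst was at 152 and 297 against 12.0 and 14.5 (4.19 ± 0.24) and Fos at 2.14 and 9.44 against 26.1 and 44.5 (-2.43 ± 0.46).

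Against the thalamic spots, 13 of 16 tested medial habenula genes were higher and 2 lower, with a median log2 difference of 4.47 against 0.01 over all genes. Both sets of spots were chosen by expression. Genes that accompany the 4 choosing genes across the tissue had to be higher here too, so these counts describe the sets. Slit2, an axon guidance protein, held 27 and 66 UMIs in the habenula spots and none in the thalamic spots, at least 37.7-fold higher, and Casz1, a zinc finger factor, was at least 13.8-fold higher. C1ql3, a synaptic organiser, was at 8.56 and 3.54 CPM against 136 and 173 (-4.84 ± 0.33), and Gap43 and Syn2 were lower (-2.95 ± 0.14 and -3.33 ± 0.14). None of the 8 microglial genes tested and none of the 3 C1q chains passed, and C4b, a complement gene, was higher (2.32 ± 0.53). All 6 ependymal genes tested and Ttr (3.38 ± 0.12) were higher too; their part was not tested. DESeq2 called 360 higher and 365 lower.

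Levels fell off with distance from the set at different rates. Chrna3 went from 317 and 218 CPM in the habenula spots to 101 and 120 at 1 pitch and 43.9 and 19.9 at 2 pitches. Gpr151 stayed higher around the set: it was at 293 and 445 in the set, 311 and 250 at 1 pitch and still 161 and 111 at 3 pitches. From the set to 1 pitch it thus fell in mouse 2 only. Over the whole medial habenula list the summed level at 1 pitch was 49.8% ± 2.12 (SD, n = 2 mice) of that in the set. Tmem212, the ependymal gene, peaked outside it, with 176 and 221 at 1 pitch against 55.7 and 66.1 within.

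**Figure D3:**
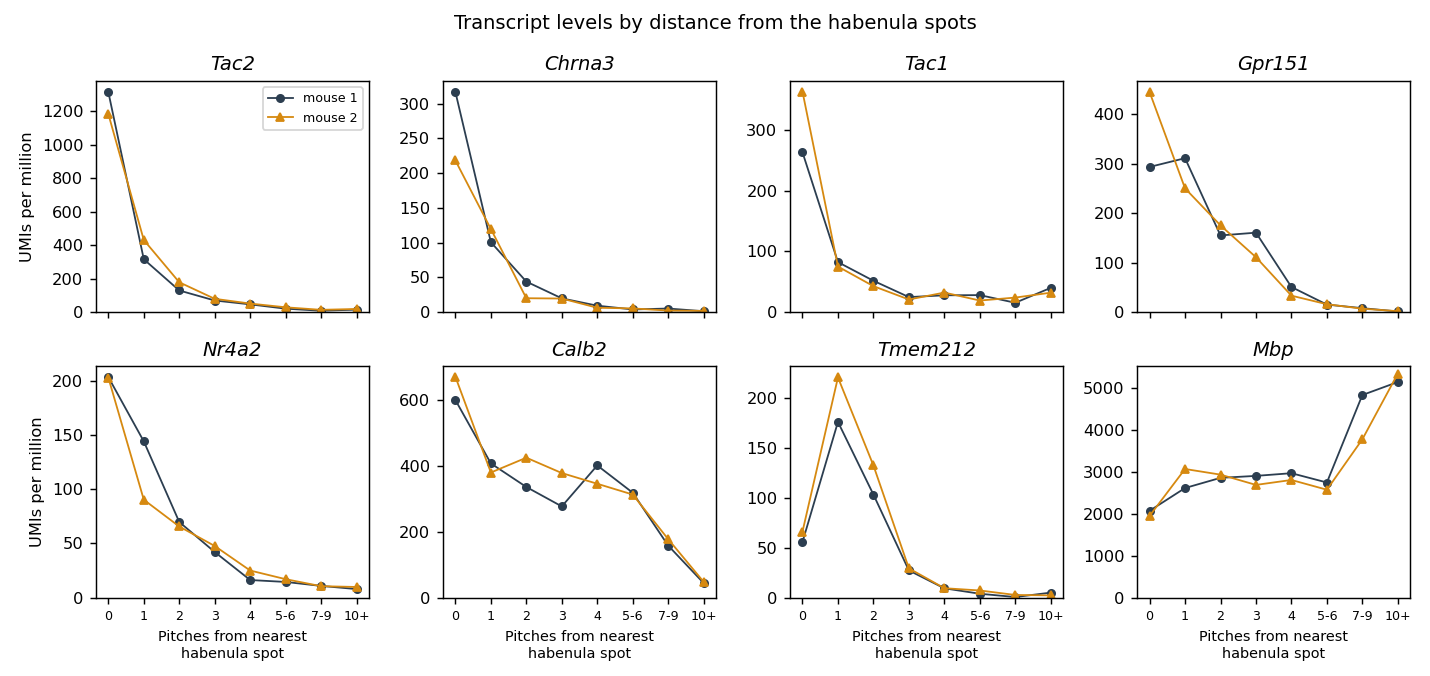
CPM of 8 genes by distance from the nearest habenula spot in spot pitches (0 is the set itself), with dark circles for mouse 1 and orange triangles for mouse 2. Tac2, Chrna3 and Tac1 drop within 1 to 2 pitches, Nr4a2 falls more slowly, Tmem212 peaks at 1 pitch and Mbp is lowest in the set. Gpr151 at 1 pitch is slightly above its level in the set in mouse 1 and below it in mouse 2.

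Within the habenula, genes differed between dorsal and ventral spots, a position that the choice of spots did not use. Dorsal spots were mostly also lateral and ventral spots mostly also medial, as given below. The spots of each mouse and side were split at their median position along the mirror line, giving 12 dorsal and 13 ventral spots per mouse. The choline and acetylcholine transporters and 2 of 5 nicotinic receptor genes tested were higher ventrally, and somatostatin and CART transcripts dorsally. Of 5712 genes tested with edgeR, 32 were higher dorsally (0.560%) and 40 higher ventrally (0.700%), together 1.26% of the genes, and 760 had an unadjusted p under 0.05.

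Ventrally, Slc5a7 was at 215 CPM in mouse 1 and 194 in mouse 2, against 55.7 and 14.0 dorsally (log2 dorsal minus ventral -2.76 ± 0.37). Slc18a3 was at 111 and 59.1 against 20.2 and 5.60 (-2.79 ± 0.43). Chrna3 was at 501 and 324 against 65.8 and 72.8 (-2.45 ± 0.22), and it was detected in all 13 ventral spots of each mouse with 5 to 22 UMIs in mouse 1 and 4 to 23 in mouse 2. In the dorsal spots its highest count was 5 in both mice. Chrnb4 followed at 182 and 149 against 35.4 and 36.4 (-2.13 ± 0.26). Chat, on 8 and 11 UMIs in the whole set, was not tested, and Chrnb3 did not pass (-0.82 ± 0.30).

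Nr4a2 and Etv1, transcription factors, shared the ventral pattern. Nr4a2 was at 312 and 312 CPM ventrally against 55.7 and 53.2 (-2.51 ± 0.20), and Etv1 at 360 and 316 against 96.2 and 72.8 (-2.01 ± 0.18). Htr5b (-2.16 ± 0.32), Synpr, a synaptic vesicle protein (-2.50 ± 0.21), and Gabbr2 (-1.08 ± 0.15) were also higher ventrally. Irx2 did not pass, at 171 and 171 against 167 and 106.

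Dorsally, Sst was at 324 and 684 CPM against 26 and 16.3 ventrally (4.78 ± 0.30), and Cartpt at 263 and 516 against 44.5 and 50.9 (3.11 ± 0.22). Sst was concentrated in few spots: its median was 1.5 and 7.0 UMIs per dorsal spot and its highest 26 and 80. The spots with those highest counts held 2 and 10 Tac2 UMIs, beside medians of 20 and 43 over the habenula spots. Their Gng8 counts were 16 and 83, beside medians of 10 and 41. Such spots thus stood low in 1 choosing gene and high in another. The split was not repeated with spots chosen without Gng8, so their part in the Sst and Cartpt differences was not tested. Tac1 was at 491 and 431 dorsally against 96.5 and 314 ventrally and did not pass (1.05 ± 0.34). Its highest count in mouse 1, 31 UMIs, lay in a dorsal spot, and that of mouse 2, 60, in a ventral one. That ventral spot lay at 27.567 pitches along the mirror line, on the left. Right spots at 27.357 and 27.392, with 21 and 32 Tac1 UMIs, counted as dorsal, because each side was split at its own median. How far the Tac1 values depend on this cut was not tested. Of the 4 choosing genes, given as a description, Gng8 was at 769 and 1597 dorsally and 564 and 1076 ventrally, Nwd2 at 744 and 787 against 1009 and 909, Tac2 at 1539 and 1084 against 1150 and 1255, and Pou4f1 at 162 and 221 against 197 and 181. Gng8 thus stood higher dorsally and Nwd2 ventrally in both mice, and Tac2 and Pou4f1 went opposite ways in the mice.

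Tissue borders moved along the same axis. Ttr was at 2526 and 2356 CPM dorsally against 219 and 595 (2.54 ± 0.28), 4 of 5 tested ependymal genes were higher dorsally, and so were Mbp (0.72 ± 0.09) and Gfap, an astrocyte filament (1.76 ± 0.24). The summed choroid plexus list stood at 3078 and 2852 against 375 and 864 and the ependymal list at 456 and 787 against 145 and 210; their part in the neuronal differences was not tested. Without the 5 spots per mouse richest in these transcripts, a choice made after the values were seen, Slc5a7 was at -1.87, Nr4a2 at -1.88 and Chrna3 at -1.33 on the log2 scale, and Sst and Cartpt at 4.75 and 2.56. No gene passed when the filter on low counts was dropped, and DESeq2 called 9 genes in each direction, including Sst, Cartpt, Slc5a7, Chrna3 and Nr4a2.

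**Figure D4:**
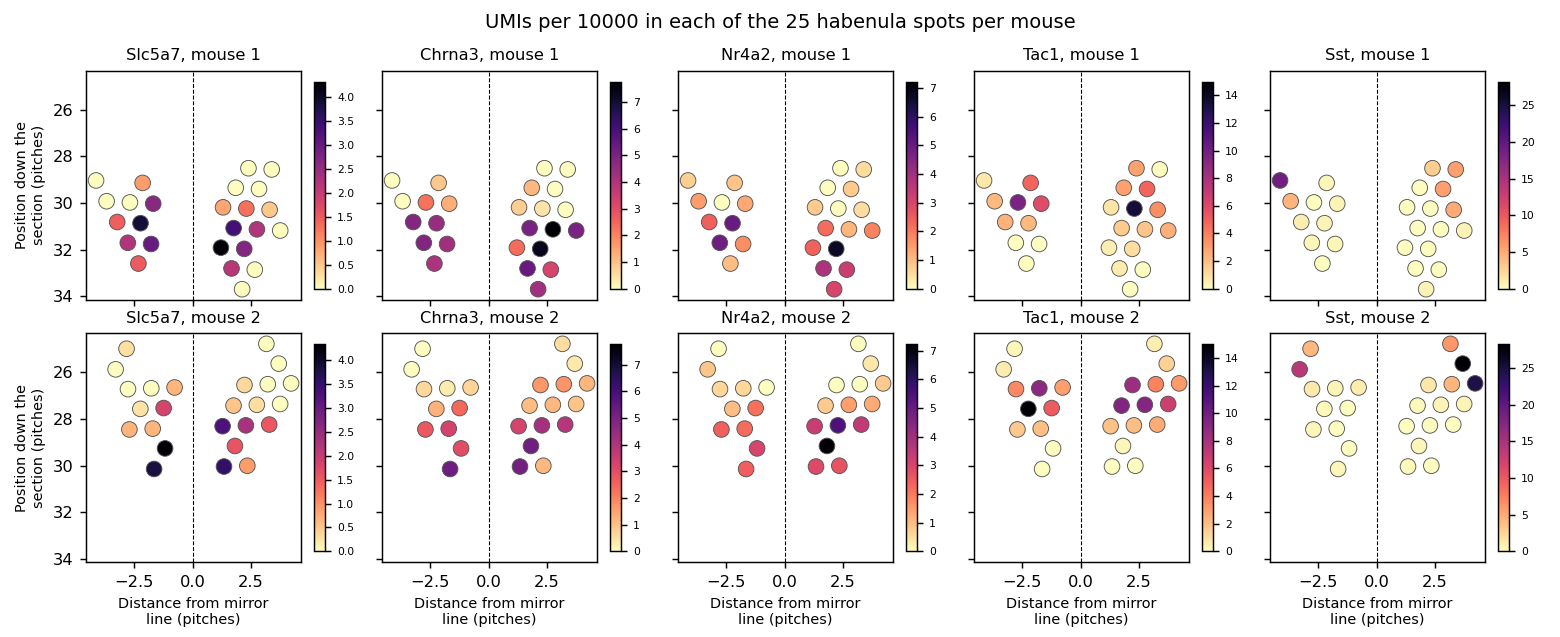
UMIs per 10000 of 5 genes in each of the 25 habenula spots of mouse 1 (top) and mouse 2 (bottom), placed by distance from the mirror line (dashed) and position down the section in spot pitches, with darker colour for a higher level. Slc5a7, Chrna3 and Nr4a2 are dark in the lower spots, Tac1 in spots at middle height and Sst in a few upper outer spots.

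Split by distance from the midline instead, 12 spots per mouse were medial and 13 lateral. Only 2 of 5803 genes tested with edgeR were higher medially (0.0345%) and 10 laterally (0.172%), and 604 had an unadjusted p under 0.05. The peptides again led: Sst was at 280 and 590 CPM laterally against 21.6 and 29.4 medially (log2 medial minus lateral -4.14 ± 0.23), Cartpt at 238 and 471 against 34.5 and 40.7 (-3.31 ± 0.23) and Adcyap1 at 144 and 267 against 30.2 and 76.8 (-1.89 ± 0.22). Cck (-0.96 ± 0.11), Calb2 (-0.94 ± 0.11), the lipid carrier Apod (-1.62 ± 0.16), Nnat (-1.38 ± 0.10), 6330403K07Rik (-1.01 ± 0.14) and Mbp (-0.67 ± 0.08) were lateral too. Gng8, the tenth, is one of the genes that chose the spots, and its 837 and 1730 against 462 and 897 are a description.

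Necab3 (1.34 ± 0.18) and Cplx1, a regulator of vesicle release (1.07 ± 0.15), were higher medially. Slc5a7 was at 220 and 201 medially against 76.5 and 27.2 but did not pass (2.19 ± 0.32, edgeR adjusted p = 0.0538), and neither did Chrna3. No listed lateral habenula gene passed, but only 0.207% of all genes did, so this says little about that list. Htr2c was at 59.5 and 151 laterally against 25.9 and 42.9 (-1.65 ± 0.29) and Gpr151 at 310 and 508 against 276 and 386. Both splits share spots, since the dorsal spots were mostly lateral (8 of 12 in mouse 1, 10 of 12 in mouse 2). The ventral spots were mostly medial (8 of 13 and 10 of 13). The axes therefore cannot be told apart for Sst and Cartpt, nor for genes higher ventrally such as Slc5a7 and Chrna3. In both mice the spot with the highest Sst count, low in Tac2 as given above, was a lateral one.

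The image sides were compared because the design text reports more GFP and c-Fos staining on the injected side in other sections of these brains, although the labels do not say which image side that was. None of 13 tested medial and 7 tested lateral habenula genes passed, but few genes of any kind did, so this says little about them. Of 6024 genes, 8 were higher on the image left (0.133%) and 0 on the right (0.00%) with edgeR, and 303 had an unadjusted p under 0.05. DESeq2 called 1 gene in all.

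Igkc led with 7 UMIs left and 1 right in mouse 1 and 32 and 1 in mouse 2, which is 36.6 against 3.62 and 82.6 against 2.17 CPM (log2 difference 4.41 ± 0.74). In mouse 2, 23 of the 32 lay in 1 spot. Igha, the alpha heavy chain, had 20 UMIs on the left of mouse 2 and none elsewhere in the set, and was not tested. Blood RNA moved with Igkc: all 4 haemoglobin genes tested were higher on the left, Hbb-bs at 717 and 599 against 315 and 219 (1.34 ± 0.15), and the summed blood list stood at 1182 and 1045 against 410 and 398. Ttr (0.81 ± 0.11) and Ptgds (0.60 ± 0.11), transcripts of the choroid plexus and meninges, and Gm42418 were higher too, and the part of blood and choroid plexus in the Igkc difference was not tested. With 40 spots per section no gene passed, and DESeq2 did not call Igkc.

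The C1q genes did not pass. C1qa was at 57.5 left and 43.5 right in mouse 1 and at 46.5 and 58.7 in mouse 2 (-0.06 ± 0.37), so the sign differed between mice, and C1qb (0.09 ± 0.35) and C1qc (-0.16 ± 0.45) did not pass. Tac1 (0.12 ± 0.16) and Chrna3 (-0.33 ± 0.18) did not pass either. Fos had 0 and 1 UMI in mouse 1 and 3 and 5 in mouse 2, too few to test.

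**Figure D5:**
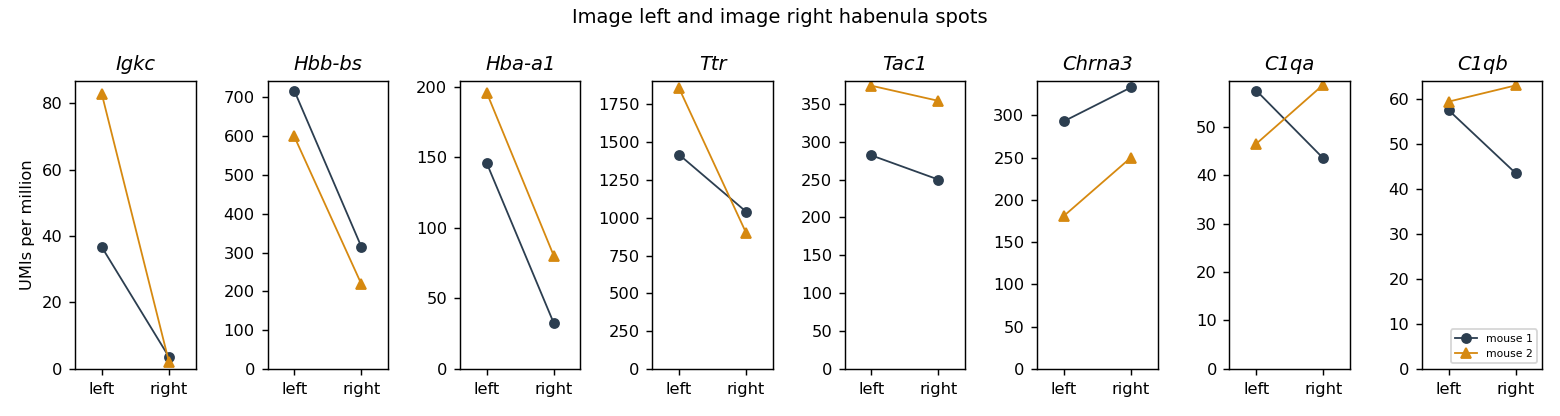
CPM in the image left and image right habenula spots of mouse 1 (dark circles) and mouse 2 (orange triangles), each panel with its own scale from 0. Igkc, Hbb-bs, Hba-a1 and Ttr are higher on the left in both mice, while the lines of C1qa and C1qb run in opposite directions.

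Most genes had similar levels in both mice. Of 4672 genes with at least 50 UMIs over the sets of both mice, 89.2% had levels within 1.5-fold, 64 had over 2 times the level in mouse 2 and 16 under 0.5 times. The level in mouse 2 was 1.96 times that in mouse 1 for Sst (95% interval 1.5 to 2.58, counting error only), 1.91 for Adcyap1 (1.34 to 2.77) and 0.689 for Chrna3 (0.552 to 0.861), beside 1.08, 0.996 and 1.14 in all other spots. Of the choosing genes, Gng8 stood at 1.99 (1.75 to 2.27) and Tac2 at 0.9 (0.813 to 0.997), beside 1.56 and 1.36 in all other spots. The chosen spots may thus cover different parts of the tissue in the 2 mice, which was not tested. With 1 section per mouse there is no test. The highest ratio, 18.8 for Lrrc17 (15 against 282 CPM), stood beside 9.99 in all other spots, and the lowest, 0.0469 for Rtl8c (101 against 4.72 CPM), beside 0.0726, whereas that of Gpr139 was 3.24 in the habenula spots and 0.924 elsewhere.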

How the data were processed

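The deposited values are raw UMI counts for every gene in every spot. Per the file headers they were written by Space Ranger 1.3.1, and the submitters' processing notes name mm10 as the genome build; how reads were assigned to genes is not stated there. CPM values here are those counts divided by the set's total. Of 32285 genes, 78 share a symbol with another. Spots under 500 UMIs were left out. Depth was 30671753 and 55315952 UMIs per section in the deposited counts.

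Counts were summed per mouse and set of spots, because spots of a section are not replicates, giving 4 libraries and 1 residual degree of freedom per comparison. edgeR 4.0.16 (R 4.3.3) fitted a quasi-likelihood model with the mouse as a block, TMM and filterByExpr, and Benjamini-Hochberg adjustment over all genes tested with a threshold of 0.05. The standard error is the log2 value over the square root of F. Against all other spots, against thalamic spots and between sides, edgeR pooled the spread fully over genes (infinite prior degrees of freedom). There the p-values and standard errors do not measure the spread of a single gene between mice. The prior degrees of freedom were 6.24 dorsal against ventral and 6.86 medial against lateral. Nothing says whether the spread between these mice is more than technical. The model was tested on simulated data drawn with 1 dispersion for all genes, the one fitted to each comparison. Only genes with at least 100 UMIs were changed. Differences in spread between genes were not simulated, so the rates need not hold in the real data. The model made between 4 and 10 false calls per comparison among unchanged genes. Of 100 genes changed 2-fold it recovered 50 against all other spots (15082 genes in the fit), 85 against thalamic spots (8604), 84 between sides (6081), 75 dorsal against ventral (5732) and 78 medial against lateral (5747).

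The members and 23 gene lists were chosen with earlier results of these data known. Named genes are members of the habenula, nicotinic, transmitter, peptide, receptor and transcription factor lists, up to 4 of each other list by size of change, the highest and lowest values per comparison, and the 10 closest to the score; Grin2b, Gabbr1 and Gabbr2 fall outside this rule and were chosen after their values were seen. Some genes the rule picks are not reported here. Of 364 names looked up, 348 matched a RefSeq position. Alternatives were DESeq2 1.42.0, no count filter, no mouse term, 15 or 40 spots, other comparison spots, spots chosen without each gene, thinning to 5000 UMIs, and leaving out 5 spots rich in choroid plexus and ependymal RNA. The choice of spots without each gene was used only against all other and thalamic spots. Intervals cover counting error only.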

Additional observations from a re-analysis of the deposited data

How the results depend on the processing

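Against all other spots, 1514 genes were higher and 2190 lower; DESeq2 gave 708 and 887, and thinning to 5000 UMIs per spot 139 and 252, all of them among the former; the last setting also left out 731 other spots of mouse 1 and 24 of mouse 2 with fewer UMIs. Against midline thalamic spots, DESeq2 gave 360 and 365 in place of 1371 and 1396. Left against right, the 8 higher genes became 5 without the mouse term, 1 with DESeq2, 3 with 15 spots per section and 0 with 40, and the 0 lower became 1 without the count filter and 1 with 15 spots. Dorsal against ventral, 32 higher and 40 lower became 0 and 0 without the filter, 9 and 9 with DESeq2, 96 and 96 with 15 spots, 92 and 85 with 40, and 98 and 96 without the 5 spots richest in choroid plexus and ependymal RNA, which was chosen after seeing the data. Medial against lateral, 2 and 10 became 64 and 67 without the filter, 19 and 25 with 15 spots, 24 and 50 with 40, 69 and 69 without those 5 spots, and 8 higher without the mouse term. The medial habenula list at 1 pitch stood at 60.6% around 15 spots. The causes were not tested.

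Signs turned for a few called genes, given here as the value without mouse 2 and then without mouse 1. Against all other spots these were 0.15 and -0.69 for Chrna4, 0.05 and -0.21 for Kcna2, 0.02 and -0.43 for Nptxr, 0.04 and -0.61 for Stxbp6, and -0.62 and 0.23 for Sst. Sst was 0.02 with spots chosen without Tac2, and Htr2c -0.05 without Gng8. Against thalamic spots they were 0.05 and -0.95 for Hba-a1 and 0.24 and -0.71 for Hbb-bs. With 25 thalamic spots Hba-a1 was 0.00 and Hbb-bs 0.40, and with 40 habenula spots Hbb-bs was 0.10. Leaving out a mouse leaves 1 library per arm and no test, so counts have no such value. The mouse is itself the replicate block. Of the calls followed, 81 of 216 held under every alternative against all other spots, 96 of 139 against thalamic spots, 0 of 8 between sides, 0 of 27 dorsal against ventral and 4 of 11 medial against lateral. Few UMIs limit Chat, Fos and the immunoglobulins.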
